A study of Mus musculus with 7 samples.

Results

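The genes described here are those of 7 solute carrier families that move amino acids and related small molecules across membranes: Slc1a, Slc3a, Slc6a, Slc7a, Slc36a, Slc38a and Slc43a. The rule that picks them uses gene symbols alone, and 60 of the 55364 genes in the expression table qualified, out of 61 that matched the symbol pattern before 1 gene was set aside. Their expression was measured in mini-oocytes, oocyte-like cells made from female mouse embryonic stem cells (mESCs, line BVSC H18, hybrid 129/C57BL6 background) by forced expression of transcription factors in a flat culture that holds no ovarian somatic cells. In the 4F cells the factors were Nobox, Figla, Tbpl2 and Lhx8, and in the 8F cells Stat3, Dynll1, Sub1 and Sohlh1 were added to these 4. Every factor carried a destabilization domain, so that it accumulated only while the ligand Shield-1 was in the medium, and all groups received SCF and Y-27632. Shield-1 was left out of fresh medium from day 12 on, which only the day 21 groups reached. The 4F and 8F cells are separate lines from the same parental cells, and the 8F line also carries an Npm2-mCherry reporter, so the line and the added factors cannot be told apart. The day 7 group held 4F cells (n = 2) in pools of 1000 cells, and both day 21 groups, 4F (n = 3) and 8F (n = 2), were made from pools of 10 cells. Day, number of cells and withdrawal of Shield-1 therefore changed together and cannot be told apart in the comparison of days. The labels do not say whether replicates came from separate cultures, so p-values measure only the spread between these samples, which may be technical.

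Amino acid carriers set which building blocks a cell can take up, exchange and release. Some work alone, and others need a partner: the light chains of the Slc7 family reach the cell surface only when bound to a heavy chain, Slc3a2 (4F2hc, also called CD98) or Slc3a1 (rBAT). Oocytes can import glycine through Slc6a9 (GLYT1) and use it to control their volume, which was not measured here. In the ovary, several other amino acids reach the growing oocyte through gap junctions from the surrounding cumulus and granulosa cells, which carry Slc38a3 (SNAT3). Not every member carries an amino acid: Slc6a4 is the serotonin transporter, Slc6a8 carries creatine and Slc43a3 carries purine nucleobases.

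Values are TPM, the share of transcripts after division by transcript length, so levels may be compared between genes. Changes are differences of log2(TPM + 1) with their standard error (SE), tested with limma, a linear model fitted across all genes, and p-values were adjusted by the Benjamini-Hochberg method over the 21780 genes that reached 1 TPM in 2 or more of the 7 libraries. A gene passed the test at an adjusted p under 0.05, and "rose" or "fell" is used only of genes that did. Between 9051715 and 17189832 reads lay on genes in each library, as recovered from the steps between low TPM values, and 3 reads on a transcript of 1 kb were worth 0.515 to 0.764 TPM. The 10 most abundant genes took 28.5% and 31.8% of all TPM at day 7 against 10.2 to 14.0% at day 21. The 10 oocyte markers summed to 12978 and 15395 TPM at day 7, with none at 0. At day 21 they summed to 36439, 36128 and 38593 TPM in 4F and, lower, to 30882 and 29900.2 TPM in 8F. The 12 granulosa cell markers summed to between 14.0 and 29.9 TPM, 4 of them lay under 1 TPM in every library, and Inha was at 0 throughout. Of the 7 that were tested 1 rose between the days in 4F, Nr5a2. It went from 2.46 and 3.73 TPM to 18.2, 8.94 and 7.32 TPM (1.53 ± 0.44, adjusted p = 0.0324). Between these days 3 of the 7 estimates were positive and 4 negative, and none of the negative ones passed. The most negative were those of Kitl (-1.33 ± 0.45, adjusted p = 0.0543) and Wnt4 (-0.87 ± 0.41, adjusted p = 0.137). Foxl2 was at 2.69 and 1.49 TPM in 8F and no more than 0.721 TPM elsewhere, a difference that did not pass. The part of the granulosa cell markers in the results was not tested.

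Promoter sequences of the members are shown first because some of the genes described below hold, near their start sites, letters that are background knowledge for this pathway and for the factors used. TGATGNAA is the core of the element through which Atf4, the transcription factor of the amino acid starvation response, acts with C/EBP proteins, and TAATTG is a site known for Nobox. Windows of 300 bases (250 before and 50 after the start site, RefSeq, GRCm38.p6) were at hand for 42 of the 60 members, 61 windows in all, and both strands were searched. The windows of Slc7a11 and Slc1a4 are printed with TGATGNAA in capitals, and 1 of the 3 windows of Slc6a9 with TAATTG in capitals.
Slc7a11 (chr3:50443564-50443863, minus strand): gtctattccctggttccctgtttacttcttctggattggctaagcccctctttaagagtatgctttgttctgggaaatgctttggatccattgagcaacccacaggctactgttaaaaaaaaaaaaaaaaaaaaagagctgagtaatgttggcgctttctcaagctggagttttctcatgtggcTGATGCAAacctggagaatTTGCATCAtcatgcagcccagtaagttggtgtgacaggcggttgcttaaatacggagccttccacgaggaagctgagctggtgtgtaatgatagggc
Slc1a4 (chr11:20332664-20332963, minus strand): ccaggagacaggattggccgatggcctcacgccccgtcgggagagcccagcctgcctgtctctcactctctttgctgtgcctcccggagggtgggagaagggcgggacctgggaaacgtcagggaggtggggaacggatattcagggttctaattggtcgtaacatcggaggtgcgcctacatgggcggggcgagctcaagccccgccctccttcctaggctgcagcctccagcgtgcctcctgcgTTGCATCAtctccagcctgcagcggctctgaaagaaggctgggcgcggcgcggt
Slc6a9 (chr4:117849100-117849399, plus strand): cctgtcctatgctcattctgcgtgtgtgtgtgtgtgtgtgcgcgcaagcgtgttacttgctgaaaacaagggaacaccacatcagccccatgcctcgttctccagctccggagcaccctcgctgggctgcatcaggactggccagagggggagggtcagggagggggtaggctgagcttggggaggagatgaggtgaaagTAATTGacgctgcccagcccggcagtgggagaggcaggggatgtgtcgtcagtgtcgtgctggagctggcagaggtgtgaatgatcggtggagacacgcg
In Slc7a11 the motif stood 66 bases before the start site on the strand of the gene and again 47 bases before it on the other strand, both as TGATGCAA. In Slc1a4 it stood 4 bases before the start on the other strand. In all, 5 of 61 member windows (8.2%), from 4 genes, held TGATGNAA against 3.97% of 32851 promoter windows, and 2 of these 5 are overlapping windows of Slc7a7 that share 1 copy of the motif. TAATTG was in 9.84% of the member windows against 8.0% of all, and the E-box CANNTG, the class of site bound by Figla and Sohlh1, in 70.5% against 72.3%. TGATGNAA and TAATTG share no base in these windows, and the window of Slc3a2 held none of the 3 motifs. A match describes letters only.

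Many members were at or near 0 in these cells. Of the 60 members, 30 passed the filter on low values and were tested, 9 were listed at 0 in all 7 libraries, and the other 21 stayed below the filter. Of these 21, 17 were under 1 TPM in every library, and the 4 that reached 1 TPM did so in 1 library each: Slc6a16 (5.35 TPM), Slc6a2, the noradrenaline transporter (3.04 TPM), Slc7a9 (1.15 TPM) and Slc7a7 (1.08 TPM). Among the 9 genes at 0 were Slc7a12, Slc7a13, the GABA transporters Slc6a11 and Slc6a13, Slc36a2, Slc36a3, Slc6a18 and Slc6a19. The glial glutamate transporters Slc1a2 and Slc1a3 reached no more than 0.0539 and 0.0298 TPM. Slc38a3, the carrier known from cumulus cells, was at 0 in 6 libraries and at 0.0976 TPM in 1 of the 8F libraries, and no library held more than 3 reads of it. Slc38a5, its close relative, did not exceed 0.0395 TPM.

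At the other end, 17 members reached a mean of at least 10 TPM in a group. At day 7 the most abundant was Slc38a8, a glutamine carrier, with 19.4% of the summed TPM of the members. In both day 21 groups it was Slc6a9, with 24.5% in 4F and 27.7% in 8F. Summed over all 60 members, the level was 399 and 389 TPM at day 7, 845, 766 and 910.0 TPM in 4F at day 21 and 1075 and 1102 TPM in 8F, so that the groups did not overlap. The plots of levels by library and of summed levels by role show this shift.

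**Figure D1:**
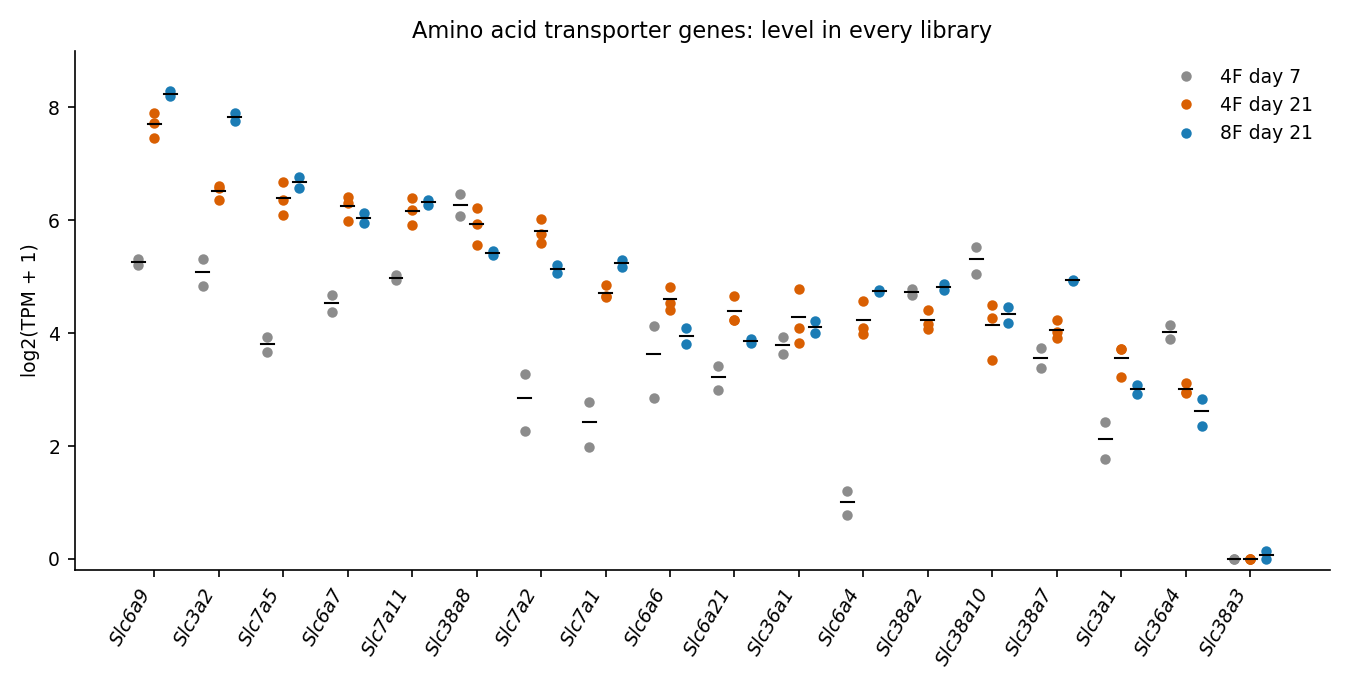
Level of the 17 members with a group mean of at least 10 TPM, and of Slc38a3, on a log2(TPM + 1) axis. Each point is a library (grey 4F day 7, orange 4F day 21, blue 8F day 21) and each bar the log2 of the group's mean TPM + 1, with genes in the order of their mean in 4F at day 21. Slc6a9 and Slc3a2 stand highest at day 21, and Slc38a3 lies at or near 0.

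**Figure D2:**
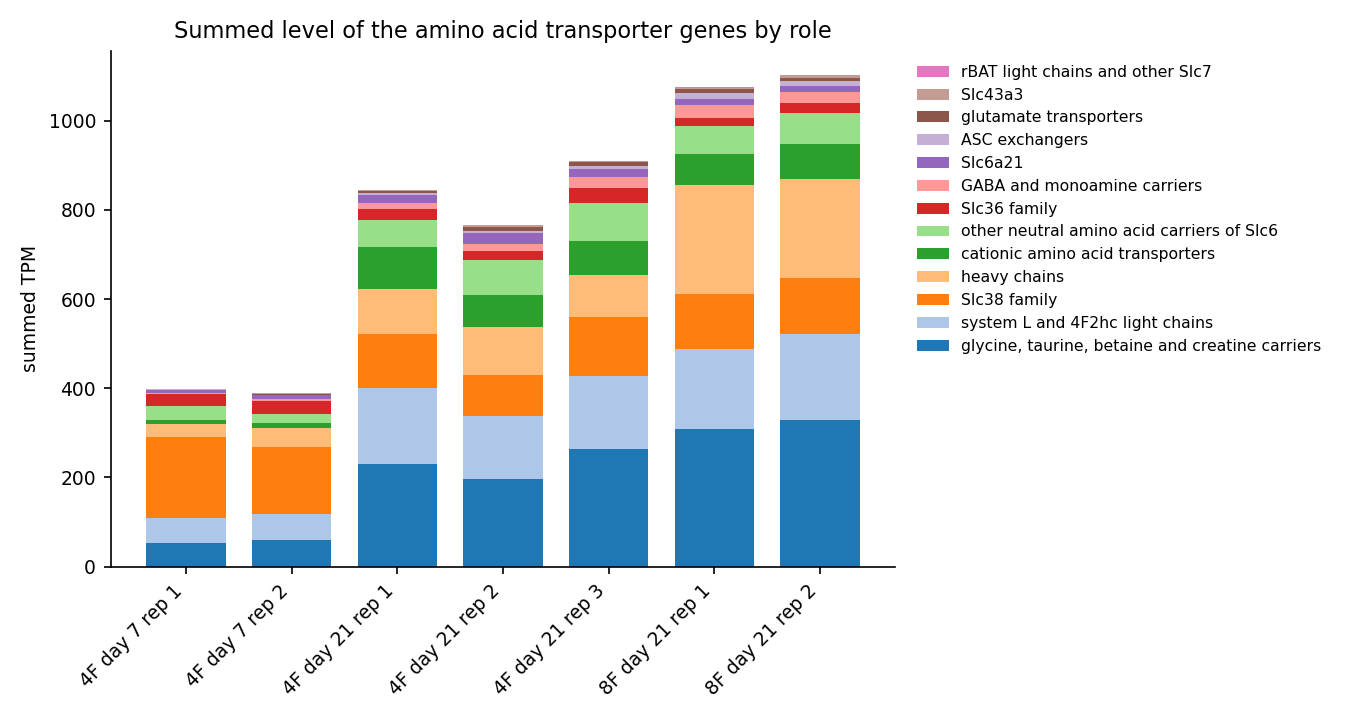
Summed TPM of the 60 members in each of the 7 libraries, stacked by role. The totals run from 389 TPM at day 7 to 1102 TPM in 8F, and the Slc38 block is the largest only in the 2 day 7 libraries.

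The first comparison, 4F at day 21 against 4F at day 7, asks which carriers changed as the culture went on. Of the 30 tested members, 13 rose and 6 fell, against a background of 40.6% of all tested genes past the same threshold (25.3% higher and 15.3% lower). The median log2 change of the tested members was 0.48 and that of all tested genes 0.17. In 15 members every day 21 library lay above both day 7 libraries (33.8% of all tested genes did) and in 7 every one lay below (22.9%), and 56.7% of all tested genes did not overlap in either direction. Those that rose included carriers of glycine, large neutral amino acids (Slc7a5), cystine, arginine and lysine, proline and glutamate, and both heavy chains. Slc6a4, Slc43a3, Slc1a4 and Slc6a21 also rose. Of the 6 that fell, 3 came from the Slc38 family, and another was Slc43a2, also a carrier of large neutral amino acids. All 19 kept their sign under each other setting that tested them, 17 in all. The split depended on the scaling. Voom, which models the recovered reads scaled by the total of each library alone, gave 9 higher and 9 lower members. It moved the median of all genes from 0.17 to -0.32, with 37.3% of all calls higher in place of 62.3%. Median-of-ratios rescaling, with 12 higher and 8 lower members, gave 48.6%. The share of all tested genes that passed with these scalings is not reported here, so both counts describe the members alone. Markers of other cell types also moved with the day. The 16 markers of other differentiated cells, of which 9 were under 1 TPM in every library, summed to 1104 and 1526 TPM at day 7 and to 81.3 to 188 TPM at day 21, nearly all of it Krt8 and Krt18 at day 7 and Krt8 and Gata4 at day 21, and the 10 pluripotent cell markers to 252 and 401 TPM and then to 882 to 1228 TPM. Among the pluripotent cell markers Dppa5a was the most abundant in every library. It was at 164 and 301 TPM at day 7 and 548 to 1076 TPM at day 21. Of the 8 tested, 3 rose in 4F (Dppa5a, Pou5f1 and Esrrb) and 1 fell (Zfp42). Nanog was at 0 in every day 21 library. The part of all these markers in the changes below was not tested. In pools of cells, fewer cells of a type and less RNA per cell cannot be told apart.

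**Figure D3:**
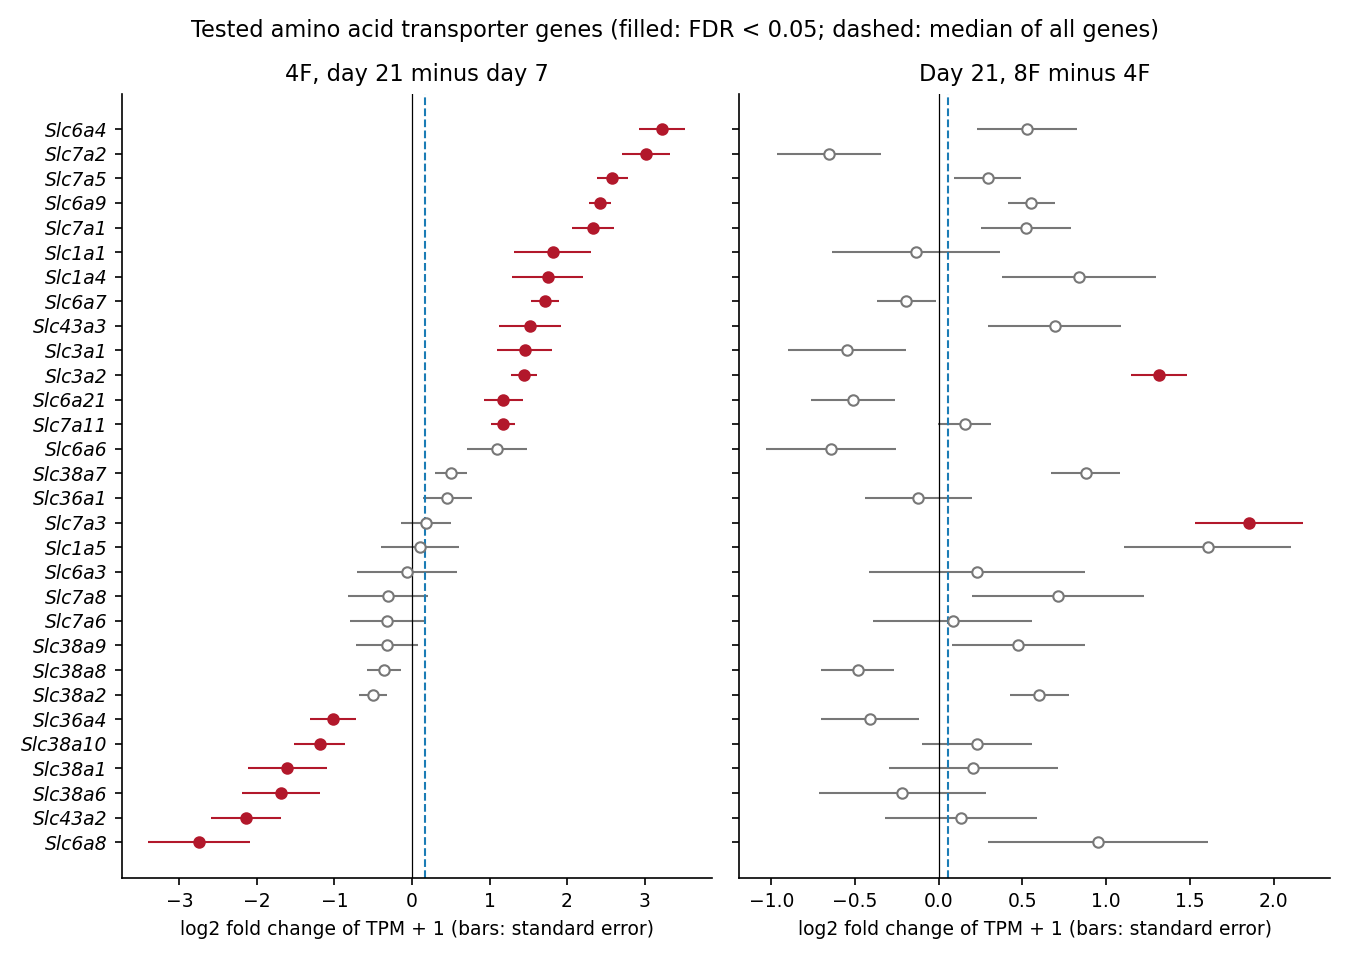
Difference of log2(TPM + 1) with its standard error for the 30 tested members, in 4F between day 21 and day 7 (left) and at day 21 between 8F and 4F (right). Filled red points passed an adjusted p of 0.05, open points did not, and the dashed line is the median of all tested genes. On the left 13 points are filled on the right of 0 and 6 on the left of it, and on the right panel Slc3a2 and Slc7a3 are filled.

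Slc6a9 (chr4:117834506-117875198, plus strand), the glycine carrier, showed the smallest adjusted p of the members. Its level was 38.7 and 36.1 TPM at day 7, 209, 175 and 236 TPM in 4F at day 21 and 292 and 312 TPM in 8F. The day 21 libraries all lay above the day 7 libraries, and the rise was 2.43 ± 0.14, adjusted p = 8.8e-05 on the log2 scale (limma), a 5.53-fold difference of mean TPM. Exons of Slc6a9 overlap those of 2 genes on the opposite strand that were also higher at day 21: 27.8% of its exon length is shared with Ccdc24, at 22.5 and 14.3 TPM at day 7 and 53.6 to 71.3 TPM in 4F at day 21, and 9.94% with Gm17114, at 11.4 and 30.8 TPM and then 152 to 238 TPM. No strand setting is stated for the read counting, so reads of these genes cannot be told apart. Of the other carriers of this group, Slc6a6, the taurine transporter, did not pass the test: its level was 6.21 and 16.5 TPM at day 7, 22.1, 20.1 and 27.3 TPM in 4F at day 21 and 13.0 and 15.9 TPM in 8F, a difference between days of 1.10 ± 0.39, adjusted p = 0.063. Slc6a8, the creatine transporter, went the other way. It stood at 8.76 and 6.47 TPM at day 7 and at 0.287, 0.619 and 0 TPM at day 21 in 4F and fell by 2.74 on the log2 scale (SE 0.66, limma adjusted p = 0.0161), while the 8F libraries, at 4.15 and 0.187 TPM, were far apart. Slc6a5, the second glycine transporter, and Slc6a12, the betaine transporter, were not tested, with at most 0.467 and 0.281 TPM.

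Both heavy chains rose. Slc3a2 (chr19:8706882-8723369, minus strand), the partner of the light chains for large neutral amino acids and cystine, was at 27.5 and 38.6 TPM at day 7, 93.9, 96.7 and 81.2 TPM in 4F at day 21 and 238 and 215 TPM in 8F. No day 21 library overlapped the day 7 libraries, and the rise in 4F was 1.44 ± 0.17, adjusted p = 0.000951. Slc3a1 was lower, at 2.41 and 4.34 TPM at day 7, 8.32, 12.1 and 12.1 TPM in 4F at day 21 and 6.54 and 7.48 TPM in 8F, and rose by 1.45 ± 0.35, adjusted p = 0.0167. It shares 26.5% of its exon length with Prepl on the opposite strand, which was at 20.2 and 23.2 TPM at day 7 and 51.0 to 65.0 TPM in 4F at day 21. The light chains that pair with Slc3a1 were nearly silent: Slc7a13 was at 0, and Slc7a9 stayed at or under 1.15 TPM.

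Of the light chains of Slc3a2, Slc7a5 and Slc7a11 rose. Slc7a5 (chr8:121881150-121907694, minus strand), also named LAT1, exchanges large neutral amino acids such as leucine. It was at 11.6 and 14.2 TPM at day 7, 81.3, 66.9 and 101 TPM in 4F at day 21 and 94.5 and 107 TPM in 8F, a rise in 4F of 2.58 ± 0.20, adjusted p = 0.000209. Slc7a11 (chr3:49892526-50443614, minus strand), also named xCT, brings in cystine in exchange for glutamate and feeds glutathione synthesis. Its level, 31.6 and 29.7 TPM at day 7, 82.5, 71.5 and 59.1 TPM in 4F at day 21 and 76.4 and 80.6 TPM in 8F, went up by 1.18 ± 0.16, adjusted p = 0.00174 between the days. Both genes had their lowest values in the day 7 libraries, and together they made up 87.1 to 98.6% of the summed TPM of the 6 light chains of Slc3a2 in each library. Slc7a6 and Slc7a8 did not pass, with differences of -0.33 ± 0.48 and -0.31 ± 0.51 and levels of no more than 5.07 and 2.72 TPM. Slc43a2 (LAT4), a carrier of the same substrates that needs no heavy chain, fell by 2.14 (SE 0.45, limma adjusted p = 0.00996), from 4.75 and 10.2 TPM at day 7 to 1.40, 0.665 and 0.522 TPM at day 21. Slc7a5 thus went from 0.367 and 0.479 of the level of Slc7a11 at day 7 to 0.986, 0.935 and 1.71 in 4F at day 21. The ratios do not overlap, and an exact two-sided permutation test of 3 against 2 libraries gave p = 0.2, the smallest it can give.

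The cationic amino acid transporters Slc7a1 and Slc7a2 carry arginine, lysine and ornithine. Slc7a1 (CAT1, chr5:148327410-148399904, minus strand) was at 5.83 and 2.97 TPM at day 7, 27.8, 24.3 and 23.9 TPM in 4F at day 21 and 35.2 and 38.3 TPM in 8F, and rose by 2.33 ± 0.27, adjusted p = 0.000873. Slc7a2 (CAT2, chr8:40862396-40922308, plus strand) was at 3.79 and 8.70 TPM at day 7, 64.1, 47.3 and 52.8 TPM in 4F at day 21 and 32.5 and 35.8 TPM in 8F. It changed by 3.02 ± 0.31, adjusted p = 0.000593, the largest rise of the amino acid carriers and an 8.76-fold difference of mean TPM. Slc7a4 and Slc7a14, of the same branch, stayed at or under 0.0231 and 0.233 TPM.

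Further carriers of neutral and acidic amino acids rose. Slc6a7, the proline transporter known from brain, was at 24.5 and 19.6 TPM at day 7, 62.3, 78.1 and 84.3 TPM in 4F at day 21 and 61.1 and 68.8 TPM in 8F, a rise of 1.72 ± 0.18, adjusted p = 0.000593. Slc1a1 (EAAC1), which takes up glutamate, aspartate and cysteine, went from 0.525 and 2.86 TPM to 5.47, 9.53 and 8.11 TPM (1.81 ± 0.50, adjusted p = 0.0274). It shares 31.9% of its exon length with 4430402I18Rik on the opposite strand, itself at 1.22 and 2.07 TPM at day 7 and 4.43 to 11.1 TPM in 4F at day 21. Slc1a4 (ASCT1), an exchanger of alanine, serine and cysteine, went from 0.779 and 0.195 TPM to 3.64, 2.52 and 6.19 TPM (1.75 ± 0.46, adjusted p = 0.0226), whereas its relative Slc1a5 (ASCT2), the glutamine exchanger, did not pass, at 1.34 and 0.275 TPM and 0.153, 1.60 and 1.14 TPM (0.10 ± 0.50, adjusted p = 0.893). Slc6a21 was at 6.91 and 9.64 TPM and 17.8, 24.1 and 17.9 TPM, a rise of 1.18 ± 0.25, adjusted p = 0.0103. With voom 4 of the calls were lost, with an adjusted p of 0.0515 for Slc1a4, 0.0634 for Slc1a1, 0.128 for Slc6a21 and 0.162 for Slc3a1. Among the genes that carry other substrates, Slc6a4 had the largest log2 change of all members, from 1.29 and 0.719 TPM to 14.8, 16.0 and 22.8 TPM (3.22 ± 0.30, adjusted p = 0.000382), and Slc43a3 went from 0 and 0.515 TPM to 2.15, 3.20 and 2.35 TPM (1.52 ± 0.40, adjusted p = 0.0223).

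The Slc38 family, sodium-coupled carriers of glutamine and other neutral amino acids, had no member that rose: of its 7 tested genes 3 fell. That is 42.9%, close to the 40.6% of all tested genes that passed in either direction (15.3% of all tested genes were lower). Slc38a10 was at 45.1 and 32.0 TPM at day 7 and 18.2, 10.5 and 21.6 TPM in 4F at day 21, and fell by 1.19 (SE 0.33, limma adjusted p = 0.0273). Slc38a6 went from 9.46 and 4.31 TPM to 1.04, 0.710 and 2.51 TPM (-1.69 ± 0.50, adjusted p = 0.0348), and Slc38a1 (SNAT1) from 1.30 and 5.97 TPM to 0.334, 0.414 and 0.208 TPM (-1.61 ± 0.50, adjusted p = 0.0428). In each of these 3 genes the day 21 libraries all lay under the day 7 libraries. Other abundant members of the family did not pass. Slc38a8 was at 86.8 and 66.0 TPM at day 7, 60.4, 46.1 and 73.1 TPM in 4F at day 21 and 40.9 and 42.6 TPM in 8F, with overlapping days (-0.36 ± 0.22, adjusted p = 0.239). Slc38a2 (SNAT2), which cells are known to raise when amino acids run short, was at 24.4 and 26.3 TPM at day 7, 20.3, 15.8 and 16.9 TPM in 4F at day 21 and 28.3 and 26.2 TPM in 8F (-0.50 ± 0.18, adjusted p = 0.0617). Slc38a7, which releases glutamine from lysosomes, was at 9.41 and 12.3 TPM at day 7, 17.8, 14.1 and 15.2 TPM in 4F at day 21 and 29.7 and 29.4 TPM in 8F (0.50 ± 0.21, adjusted p = 0.103), and Slc38a9, a lysosomal arginine sensor of the mTORC1 pathway, did not exceed 5.34 TPM (-0.33 ± 0.40, adjusted p = 0.551). In the Slc36 family, Slc36a4 was at 13.8 and 16.7 TPM at day 7, 6.79, 6.65 and 7.66 TPM in 4F at day 21 and 4.13 and 6.12 TPM in 8F, and fell by 1.02 (SE 0.29, limma adjusted p = 0.0317), while Slc36a1 (PAT1), a proton-coupled carrier of lysosomes and the cell surface, showed no change that passed the test, at 14.2 and 11.3 TPM at day 7, 16.0, 13.1 and 26.5 TPM in 4F at day 21 and 14.96 and 17.6 TPM in 8F (0.46 ± 0.32, adjusted p = 0.302).

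Of the 19 calls, 10 held with each library left out in turn: Slc6a9, Slc7a5, Slc3a2, Slc7a11, Slc7a1, Slc7a2, Slc6a4, Slc6a7, Slc6a21 and Slc43a2. Without 4F day 7 replicate 1, 12 members passed, and the calls of Slc1a1, Slc3a1, Slc43a3, Slc36a4, Slc38a6, Slc38a10 and Slc6a8 were lost. Without 4F day 7 replicate 2, those of Slc1a4, Slc36a4, Slc38a10 and Slc6a8 were lost. Leaving out a day 21 4F library cost the calls of Slc36a4, Slc38a1 and Slc38a6 (replicate 1), of these and Slc1a1 (replicate 2) or of Slc1a1 and Slc38a1 (replicate 3). Leaving out either 8F library, which enters only the estimate of the spread, cost those of Slc1a1, Slc1a4, Slc38a1, Slc38a6 and Slc38a10.

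The second comparison, 8F against 4F at day 21, asks how the cells with the 4 added factors differed. Of the 30 tested members 2 rose and none fell, 6.67% against a background of 8.37% of all tested genes (3.95% higher and 4.41% lower). An unadjusted p under 0.05 was reached by 6 members, all higher in 8F, against 22.3% of all tested genes. In 12 members both 8F libraries lay above all 3 4F libraries (40%, against 24.1% of all tested genes), and in 6 both lay below (20%, against 19.8%, or 43.8% in either direction). The median log2 difference was 0.23 in the tested members and 0.06 in all tested genes. Cell type markers also differed. Of 10 oocyte markers 1 rose (Bmp15) and 3 fell (Npm2, Ddx4 and Nlrp5), 40% against 8.37% of all tested genes. Of 5 tested markers of other differentiated cells 1 rose (Gata4, 1.17 ± 0.26), and of 8 of pluripotent cells 1 rose (Klf2, 2.51 ± 0.48). None of the 7 tested granulosa cell markers passed. The part of these markers in the differences was not tested. The deposited values have 17 decimals in the 8F columns and 9 in the 4F columns, so how values were written changed with the set of factors, and the part of this in the differences was not tested. The study's methods also name different sequencers and read lengths without saying which libraries ran on which. Whether these changed with the set of factors or with the day is therefore not known and was not tested.

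Slc3a2 was 238 and 215 TPM in 8F and 93.9, 96.7 and 81.2 TPM in 4F, a rise of 1.31 ± 0.17, adjusted p = 0.00968 and a 2.50-fold difference of mean TPM. Slc7a3 (CAT3, chrX:101079210-101086020, minus strand), the third cationic amino acid transporter, was at 2.68 and 3.55 TPM in 8F, at 0.451, 0 and 0 TPM in 4F and at 0 in both day 7 libraries, and rose by 1.85 ± 0.32, adjusted p = 0.0222. Neither call held with each library left out. Without 8F replicate 1 the adjusted p was 0.112 for Slc3a2 and 0.0772 for Slc7a3, without 8F replicate 2 it was 0.0807 and 0.0937, and that of Slc7a3 was 0.0594 without 4F day 21 replicate 2 and 0.0606 without replicate 3. The difference of Slc3a2 stayed between 1.24 and 1.48 in all 17 other settings. With a pseudocount of 0.1 the adjusted p of Slc7a3 was 0.0506.

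Light chains did not follow Slc3a2 past the threshold. In 8F against 4F, Slc7a5 differed by 0.29 ± 0.20, adjusted p = 0.47 and Slc7a11 by 0.15 ± 0.16, adjusted p = 0.658. The level of Slc3a2 over the summed level of its 6 light chains was 0.554 and 0.792 at day 7, 0.557, 0.682 and 0.499 in 4F at day 21 and 1.35 and 1.11 in 8F. The 8F libraries lay above 1 and all others below it, with means of 1.23 ± 0.17 (SD, n = 2) in 8F and 0.579 ± 0.0933 (SD, n = 3) in 4F at day 21, and the exact two-sided permutation test gave p = 0.2, the smallest that 10 splits of 5 libraries allow.

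**Figure D4:**
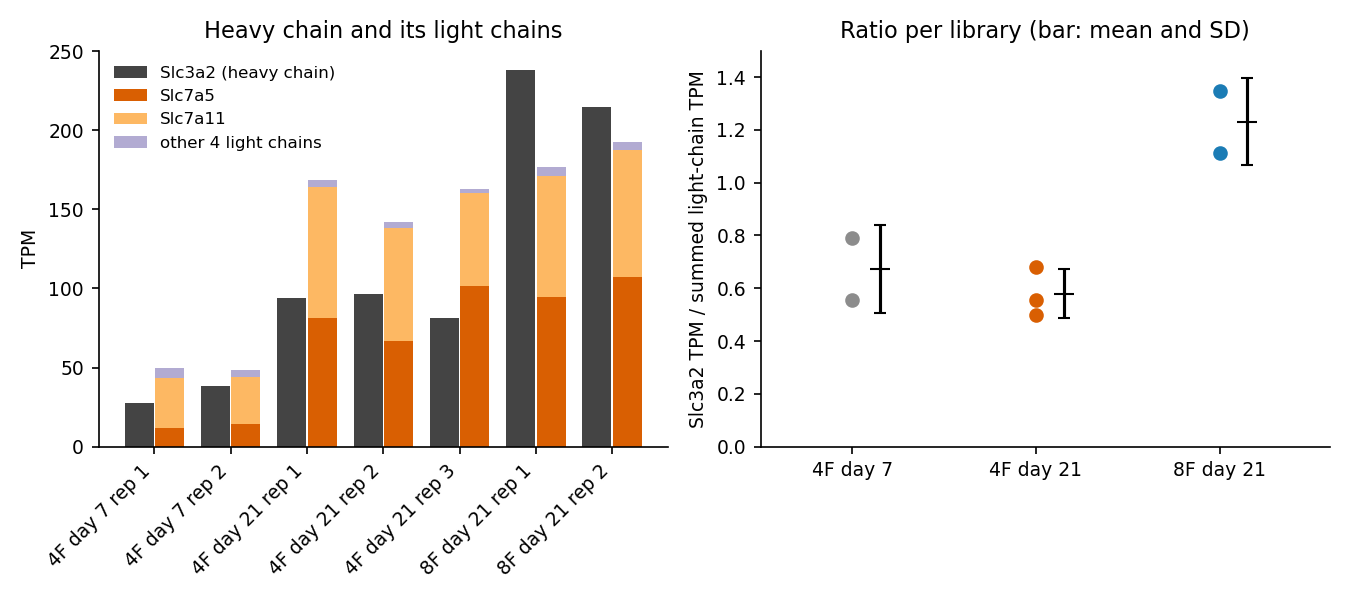
Left, TPM of Slc3a2 (dark bars) beside the stacked TPM of its 6 light chains in each of the 7 libraries. Right, the ratio of the 2 in each library, with group mean and SD. The ratio is 1.35 and 1.11 in the 8F libraries and at most 0.792 in the others.

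Among members short of the threshold, several had 8F libraries that all lay on one side of the 4F libraries. Slc6a9 was at 292 and 312 TPM in 8F, above the 209, 175 and 236 TPM of 4F, a difference of 0.55 ± 0.14, adjusted p = 0.0657, and voom gave 0.71 with an adjusted p of 0.00336. Reads of Gm17114 and Ccdc24, whose exons overlap those of Slc6a9, cannot be told apart here either. Gm17114 was at 270 and 326 TPM in 8F and 152 to 238 TPM in 4F. Ccdc24 was at 83.4 and 95.9 TPM in 8F and 53.6 to 71.3 TPM in 4F. Slc38a7 was at 29.7 and 29.4 TPM against 17.8, 14.1 and 15.2 TPM (0.88 ± 0.21, adjusted p = 0.0531), Slc38a2 at 28.3 and 26.2 TPM against 20.3, 15.8 and 16.9 TPM (0.60 ± 0.18, adjusted p = 0.0985), and Slc1a5 at 5.02 and 4.33 TPM against 0.153, 1.60 and 1.14 TPM (1.61 ± 0.50, adjusted p = 0.115). With voom, 6 members passed, all higher: Slc3a2, Slc7a3, Slc6a9, Slc7a1, Slc38a2 and Slc38a7. The share of all tested genes that passed with voom is not reported here, so this count describes the members alone. Voom also moved the median of all tested genes in this comparison, from 0.06 to 0.27. Of all its calls 62.9% were higher, in place of 47.3%. The 2 cationic carriers differed in sign, Slc7a1 at 0.52 ± 0.27 and Slc7a2 at -0.66 ± 0.31, with adjusted p-values of 0.322 and 0.286 in limma. Slc7a2 over Slc7a1 was 2.31, 1.95 and 2.21 in 4F at day 21 and 0.925 and 0.936 in 8F (exact two-sided permutation p = 0.2, the smallest possible), but 0.650 and 2.93 in the 2 day 7 libraries. Between the days in 4F the same permutation test of this ratio gave p = 0.8. Slc6a7, Slc6a21, Slc3a1 and Slc6a6 had estimates of -0.19 ± 0.18, -0.51 ± 0.25, -0.55 ± 0.35 and -0.64 ± 0.39, none past the threshold.

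Against 4F at day 7, the 8F cells had 13 members higher and 4 lower, 56.7% of those tested against 37.2% of all genes (24.2% higher and 13.0% lower). This comparison shares its libraries with the other two and is no separate evidence. Slc38a7 rose by 1.38 ± 0.23, adjusted p = 0.00469. Slc6a9 differed by 2.98 ± 0.15 and Slc3a2 by 2.76 ± 0.18. Without 8F replicate 2, 11 members passed.

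Lists of other genes that handle amino acids were set beside the carriers, with the lists chosen with earlier results of these data known. Between days in 4F, 17 of 23 genes in a list of cytosolic aminoacyl-tRNA synthetases, which load amino acids onto tRNA, rose and none fell (median 0.81, 73.9% against 40.6% of all genes). The 3 with the largest changes were Nars (1.99 ± 0.12, adjusted p = 0.0001), Farsa (1.76 ± 0.33, adjusted p = 0.0065) and Sars (1.68 ± 0.13, adjusted p = 0.000193). The list also holds Aimp1, Aimp2 and Eef1e1, which are not synthetases, and of these Aimp2 and Eef1e1 rose. Of 14 genes of the Atf4 response, Atf4 included and the carriers left out, 8 rose and none fell (57.1%, against 40.6% of all genes). The estimates of 5 others were negative, none past the threshold. Ddit4, an inhibitor of mTORC1, went from 0.436 and 0 TPM to 51.7, 63.5 and 59.2 TPM (5.62 ± 0.22, adjusted p = 3.8e-05). Stc2, a secreted glycoprotein, changed by 3.84 ± 0.30, adjusted p = 0.000206 and Chac1, which breaks down glutathione, by 2.59 ± 0.59, adjusted p = 0.0133. In the synthesis of serine, glycine, proline and one-carbon units 5 of 11 genes rose, 45.5%, close to the background of 40.6%. Among those that rose were the mitochondrial folate enzymes Mthfd2 (2.45 ± 0.17, adjusted p = 0.000134) and Shmt2 (2.36 ± 0.19, adjusted p = 0.000262). Gclc and Gclm, the 2 subunits of the first enzyme of glutathione synthesis, rose by 0.77 ± 0.19 and 0.73 ± 0.23 (adjusted p = 0.0195 and 0.0432). They are 2 of the 4 genes of that list, 50% against 40.6% of all genes.

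Among genes of lysosomal amino acid sensing by mTORC1, 9 of 25 rose and 2 fell, 44% against 40.6% of all tested genes. The arginine sensor Castor1 changed by 2.14 ± 0.45, adjusted p = 0.01, the Rag GTPase Rragc by 1.55 ± 0.11, adjusted p = 0.000171 and Sec13 by 1.17 ± 0.17, adjusted p = 0.00225. Wdr59, a partner of Sec13 in the complex that favours mTORC1 activity, changed by -1.28 ± 0.35, adjusted p = 0.0251. Of 15 tested amino acid transporters of other families or with lettered symbols, 4 rose and 2 fell, 40%, close to the background. Slc16a10, a carrier of aromatic amino acids, changed by 1.28 ± 0.18, adjusted p = 0.00221, Slc6a20a by 0.96 ± 0.30, adjusted p = 0.0402, Slc25a44, the mitochondrial carrier of branched-chain amino acids, by 0.70 ± 0.19, adjusted p = 0.024, and Slc6a20b by -0.81 ± 0.18, adjusted p = 0.0116.

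**Figure D5:**
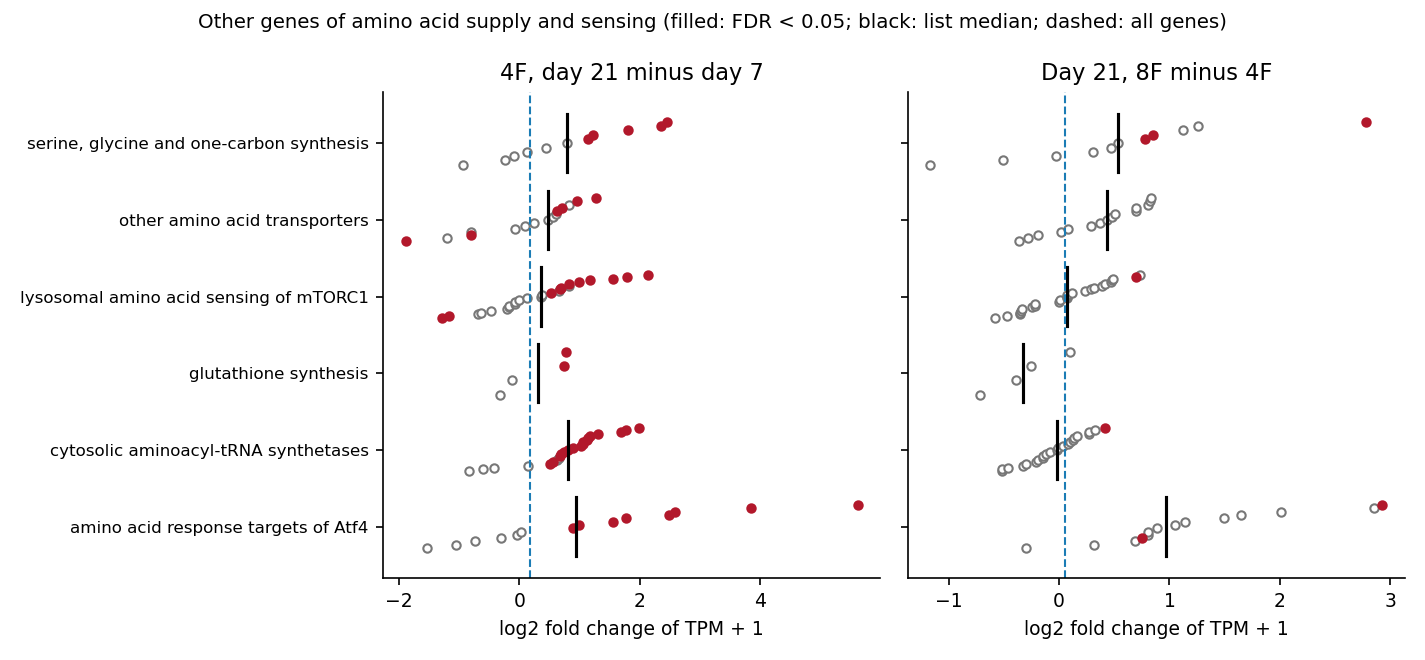
Difference of log2(TPM + 1) for each tested gene of 6 lists, in 4F between day 21 and day 7 (left) and at day 21 between 8F and 4F (right). Filled red points passed an adjusted p of 0.05, black bars are list medians and the dashed line is the median of all tested genes. The medians of the tRNA synthetase list are 0.81 on the left and -0.02 on the right, and those of the Atf4 list 0.94 and 0.97.

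Between 8F and 4F few of these genes passed the test. In the Atf4 list 2 of 14 rose (14.3%, against 8.37% of all tested genes, the background of each list here), with a median of 0.97, and 12, all higher in 8F, had an unadjusted p under 0.05, against 11.4% of all tested genes. Atf4 itself was at 769 and 633 TPM in 8F and 479, 412 and 359 TPM in 4F (0.75 ± 0.15, adjusted p = 0.0326). Sesn2, a leucine sensor, was at 70.3 and 69.0 TPM and 12.8, 3.31 and 12.5 TPM (2.93 ± 0.52, adjusted p = 0.0239). In the 8F libraries both genes lay above every 4F library. Asns, the asparagine synthetase, at 106 and 81.9 TPM against 37.1, 32.2 and 60.7 TPM, did not pass (1.14 ± 0.29, adjusted p = 0.0616). In the list of serine, glycine, proline and one-carbon synthesis 3 of 11 rose: Psat1, of serine synthesis, from 2.96, 1.89 and 2.30 TPM to 22.6 and 21.5 TPM (2.78 ± 0.57, adjusted p = 0.034), Shmt2 (0.85 ± 0.19, adjusted p = 0.0468) and Mthfd2 (0.77 ± 0.17, adjusted p = 0.0398). Of the tRNA synthetase list 1 of 23 rose, Iars (0.41 ± 0.09, adjusted p = 0.0395), with a list median of -0.02, and of the mTORC1 list 1 of 25, Rraga (0.70 ± 0.16, adjusted p = 0.0483). Of the glutathione list 0 of 4 passed limma, with 1 at an unadjusted p under 0.05, and of the other transporters 0 of 15, with 0 at an unadjusted p under 0.05.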

How the data were processed

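Per the study's methods, libraries were made with the SMART-seq Stranded Kit, reads were trimmed with Trim Galore and aligned to mm10 with Hisat2, rRNA was removed with bedtools, and unique reads were assigned to genes with featureCounts, with fractions for shared reads. Tool versions are not given in the sources used here. The deposited table holds TPM per gene, computed by the authors. TPM are not counts, so levels were tested as log2(TPM + 1) with limma 3.58.1 (R 4.3.3, lmFit, eBayes with trend, two-sided), all 7 libraries in 1 fit, over the 21780 genes that reached 1 TPM in 2 or more libraries, with Benjamini-Hochberg adjustment over all of them. The study's methods instead tested read counts, which were not used here. The test was also run on simulated reads that gave every gene the same dispersion, which these data need not have. The outcome of that run is not reported here. Reads per library (9051715 to 17189832) were recovered from TPM steps and exon lengths. Of the low values, 77.6 to 83.7% came out whole within 0.02 reads, and intervals and floors cover counting error only. Positions and exon overlaps come from GRCm38 annotation matched by gene identifier (98.1% with version). The sequences are from RefSeq.

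The members and all lists were chosen with earlier results of these data known. Members with a group mean of at least 10 TPM, those past the threshold in either comparison, and Slc6a9, Slc7a5 and Slc38a3 are named with values. From the other lists up to 3 genes per direction and comparison are named, those with the largest change among genes past the threshold with at least 10 TPM in the higher group. A few genes that these rules would name are not reported here. Asns was added after its values were seen. Replicate numbers were checked: deviations of same-numbered libraries correlated between -0.0369 and 0.0111. This gave no sign that the numbers pair samples. In groups this small, where deviations from the mean mirror each other, it cannot exclude a pairing. Of rows with a repeated symbol the most abundant was used.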

Additional observations from a re-analysis of the deposited data

How the results depend on the processing

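Counts of members past the threshold moved as follows. The share of all tested genes that passed under each other setting is not reported here, so these counts describe the members alone. Between days in 4F the count was 19, 13 to 20 under the 9 other settings, and 12 with a replicate block (a term for the replicate number). Whether the numbers pair libraries is not known. The count was 15 to 17 with 1 4F day 21 library left out. Of all fits with 1 library left out, it was lowest without 4F day 7 replicate 1. Between 8F and 4F at day 21 it was 2, 1 with a pseudocount of 0.1, 6 with voom on recovered reads, 0 with the replicate block (5 at an unadjusted p under 0.05), and 0 to 3 with 1 library left out, 0 without either 8F library. Between 8F and 4F at day 7 it was 17, 15 with the block, and 11 to 17 with 1 library left out, lowest without 8F replicate 2. The cause of these moves was not tested. Where a group was left with 1 library, that library was assumed to vary like the others. The 19 and 2 members past the threshold in the first 2 comparisons kept their sign in every setting that tested them. The sign of some other members, or comparisons, changed. With voom the log2 difference became -0.050 for Slc36a1 and -0.024 for Slc38a7 between days in 4F, 0.020 for Slc1a1 and 0.033 for Slc36a1 between 8F and 4F at day 21, and -0.017 for Slc36a1 and -0.30 for Slc38a2 between 8F and 4F at day 7. Median-of-ratios rescaling and quantile normalization each gave -0.22 for Slc38a2 in the last of these. Quantile normalization gave -0.22 for Slc38a1 and -0.20 for Slc43a2 between 8F and 4F at day 21, and the replicate block 0.15 for Slc36a1 and 0.086 for Slc38a6. With 1 library left out, the same comparison ran from -0.34 to 0.020 for Slc1a1, from -0.33 to 0.15 for Slc36a1, from -0.056 to 0.43 for Slc38a10, from -0.43 to 0.086 for Slc38a6 and from -0.11 to 2.01 for Slc6a8, and 8F against day 7 from -0.18 to 1.09 for Slc6a6. Group sizes of 2 and 3 and levels near the worth of 3 reads limit these values.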
